A study of Mus musculus with 6 samples.

Results

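The 200 lincRNAs described here are the long intergenic noncoding RNAs with the most reads in these mouse livers. They were chosen by their counts, as the genes of GENCODE M21 type lincRNA with the highest sum of raw counts over all 6 libraries, after chromosomes X and Y and H19, Meg3, Rian, Mirg, Airn, Kcnq1ot1 and Peg13 were set aside. The table lists 53715 genes, 5340 of them lincRNAs, of which 4692 remained after that step and 2009 of those had 0 counts in every library. Polyadenylated liver RNA came from F1 males of ICR, an outbred mouse stock, at 8 weeks of age, in 3 control F1 libraries, whose stress label is control, and 3 FR F1 libraries, whose stress label is famine of the father. The series title speaks of an overdiet and FR is not spelled out, so the groups keep these names. No allele, agent or diet of the F1 males themselves is named, and the labels do not say whether libraries came from separate animals. The p-values therefore measure the spread between these samples, which may be technical.

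LincRNAs are spliced or unspliced transcripts without a known long reading frame. Some shape nuclear bodies, some are hosts from which small nucleolar RNAs or microRNAs are cut, and some bind RNA-binding proteins or microRNAs. At many loci transcription starts from the promoter region of a neighbouring coding gene, and no role of the RNA itself is known. Of the 200, 187 carry only a clone or model name.

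Library totals ran from 2279755 to 2730160 counts. After a filter on low counts 13022 genes were tested, among them 198 of the 200 lincRNAs, while C730036E19Rik and Gm42047 did not pass it. The summed level of 10 hepatocyte markers, among them Alb, Apoa1 and Ttr, was 6078 to 7402 CPM (counts scaled to a common library size) in control and 6135 to 6740 CPM in FR F1 libraries. The median log2 fold change of these 10 was -0.19, with 3 positive, 3 lower at an unadjusted p under 0.05 and 0 passing the adjusted edgeR test. Over all tested genes 8.88% were lower at that unadjusted p. Markers of sinusoidal endothelial and stellate cells had higher sums in FR F1, though few passed the test alone. All 12 sinusoidal endothelial markers had a positive log2 fold change, with a summed level of 499 to 770 CPM in control and 909 to 1103 CPM in FR F1, and so did all 12 stellate cell markers, at 393 to 608 and 865 to 1063 CPM, with 0 and 1 of the 12 passing the adjusted edgeR test (9 of 12 in each list had an unadjusted p under 0.05). Over all tested genes 9.02% were higher at that unadjusted p. All 12 Kupffer cell markers (median log2 fold change 0.42) and all 5 tested B cell markers (0.94) were positive too, with sums that overlapped between groups. Of T and NK cell, cholangiocyte and erythroid markers 1, 2 and 4 were tested, 1, 1 and 3 were positive, and 0 passed. Cholangiocyte sums were 42.8 to 137 CPM in control and 71.0 to 94.0 CPM in FR F1, and T and NK cell sums overlapped too. Erythroid sums were 182 to 407 CPM in control and 409 to 470 CPM in FR F1. At an unadjusted edgeR p under 0.05, 1 erythroid marker was higher and 1 lower. No listed marker of any of these cells was at 0. In bulk liver, fewer cells of a type and less RNA per cell cannot be told apart, and the part of cell makeup in the lincRNA values was not tested.

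The counts that chose the members were concentrated in few of them. The sums ran from 114 for Gm26869 to 8198 for Neat1, with a median of 267, and the 10 most counted held 35.0% of the counts of all 200. Just inside the limit stood Gm30301 with 116, Gm26792 with 115 and Gm26869 with 114 counts. Just outside it stood Gm26909 with 109, Gm28874 with 108 and 1700096K18Rik with 108 counts. Per kilobase of merged exons the mean level ran from 1.08 CPM for Lncpint to 239.6 CPM for Gm42418, with a median of 10.7. The median over all tested protein-coding genes was 10.4. The 200 were chosen as the most counted of their type, so these medians do not compare lincRNAs with coding genes as classes.

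The members ranged from single-exon to multi-exon transcripts. The transcript with the most exons had 1 exon in 16 members, 2 exons in 73 and 3 or more in 111, and the median length of the merged exons was 2024 bases. Many loci were not isolated. Exonic bases were shared with another annotated gene in 109 members, in 98 of them with a gene on the opposite strand, and 69 shared bases with a protein-coding gene. No source used here states whether counting took strand into account, so reads of such pairs cannot be told apart. RefSeq held 120 of the members, 110 of them as long noncoding RNA, 8 under a protein-coding entry and 2 under a pseudogene entry.

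Between the groups 2 of the 198 tested lincRNAs passed the adjusted test. 1700001L05Rik was lower and Gm2061 higher in FR F1, by the quasi-likelihood test of edgeR at an adjusted p under 0.05 (Benjamini-Hochberg, over all 13022 genes). That is 1.01% of the tested lincRNAs, where 0.837% of all tested genes passed, 0.392% higher and 0.445% lower. An unadjusted p under 0.05 was found in 42 lincRNAs, or 21.2%, beside 17.9% of all tested genes. Of these 22 were higher, where the share over all genes is 9.02%, and 20 lower, where it is 8.88%. The 3 libraries of one group lay all above the 3 of the other in 52 lincRNAs, or 26.3%, beside 25.7% of all tested genes. FR F1 was above in 24 of them, where the share over all genes is 12.5%, and below in 28, where it is 13.2%. These shares are near the background. The choice of members and the filter on low counts both used the libraries compared here. A lincRNA low in control F1 could enter through its FR F1 counts, or the reverse. The shares among the lincRNAs are therefore not independent of that choice.

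Log2 fold changes, always FR F1 over control F1 here, were positive in 111 and negative in 87 of the tested lincRNAs. Their median was 0.05, with the middle of the distribution between -0.27 and 0.33 (quartiles), beside 0.00 over all tested genes and 0.00 over 11516 tested protein-coding genes. The 89 lincRNAs that share no exonic bases had a median of 0.15 and the 109 that do had 0.01. The median coefficient of variation between replicates beyond counting error was 23.1% in the lincRNAs and 19.4% in the protein-coding genes, at a median level of 18.1 and 48.9 CPM.

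**Figure D1:**
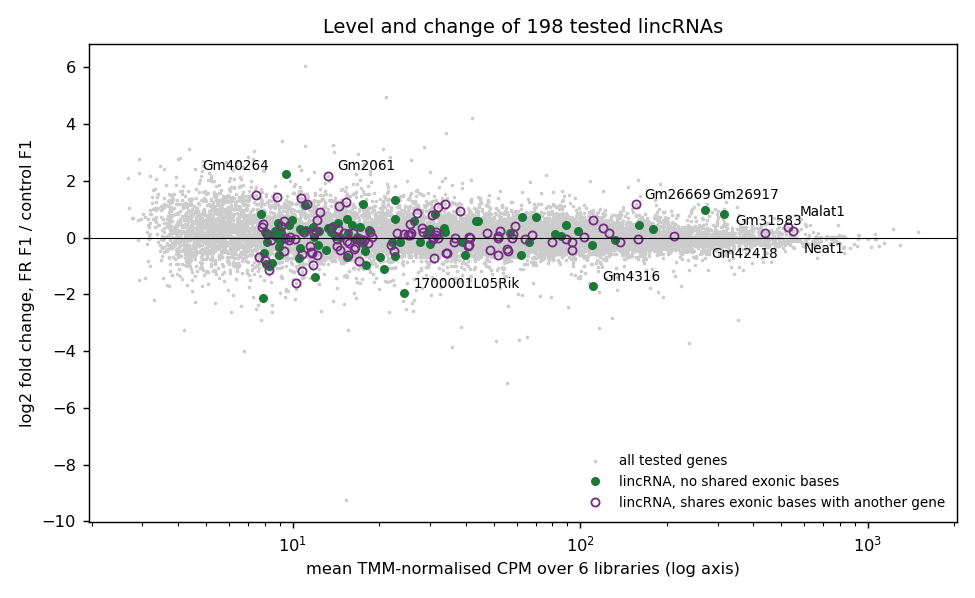
Mean level of each tested gene over the 6 libraries in normalised CPM (log axis) against its log2 fold change, with all 13022 tested genes in grey, lincRNAs without shared exonic bases as filled points and lincRNAs that share them as open points. Most lincRNAs sit within the grey cloud, and Gm2061 at 2.18 and 1700001L05Rik at -1.97 lie near its edges.

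1700001L05Rik (ENSMUSG00000075511.9, mm10 chromosome 15, 83353847 to 83367282, minus strand) is a lincRNA of up to 4 exons that shares no exonic bases with another gene. Its promoter is shown because it was the only lincRNA that passed the adjusted edgeR test as lower in FR F1. The window spans 250 bases before and 50 bases after the RefSeq start (RefSeq, GRCm38.p6, chr15:83367248-83367547, minus strand, 5′ to 3′). Capitals mark CACGTG, the E-box bound by the clock proteins CLOCK and BMAL1, and the GC box GGGCGG.
1700001L05Rik: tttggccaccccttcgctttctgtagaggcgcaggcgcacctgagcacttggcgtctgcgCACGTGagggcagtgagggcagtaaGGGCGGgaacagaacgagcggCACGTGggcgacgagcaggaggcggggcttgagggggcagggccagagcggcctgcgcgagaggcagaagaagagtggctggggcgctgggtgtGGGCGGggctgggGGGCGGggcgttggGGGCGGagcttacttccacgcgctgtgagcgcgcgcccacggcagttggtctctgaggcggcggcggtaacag
CACGTG stands 190 and 144 bases before the start, and GGGCGG 165, 50, 37 and 23 bases before it. The window holds 70.3% G and C.

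In the libraries, 1700001L05Rik stood at 36.0, 35.6 and 45.3 CPM in the control libraries (replicates 1, 2 and 3) and at 7.48, 12.9 and 9.44 CPM in the FR F1 libraries. Every FR F1 library lay below every control library. The mean was 39.0 ± 5.47 CPM in control and 9.94 ± 2.74 CPM in FR F1 (SD, n = 3 each), a log2 fold change of -1.97 ± 0.26 (SE; edgeR adjusted p = 0.0282). The nearest protein-coding gene is Arfgap3, which encodes a GTPase-activating protein of the Golgi and lies 3600 bases away, at a log2 fold change of -0.45 ± 0.21 (SE; edgeR adjusted p = 0.301). The call was lost without control replicate 2 and without each of FR replicates 1, 2 and 3, and with the replicate number as a block, with adjusted p up to 0.149 over all edgeR, DESeq2 and limma alternatives.

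Gm2061 (ENSMUSG00000097615.1, mm10 chromosome 1, 185447116 to 185455568, minus strand) lies head to head with Slc30a10, the gene of a transporter that exports manganese from cells. All 533 bases of its exon 1 (185455036 to 185455568) are exonic in Slc30a10 on the plus strand, while exon 2 (185454005 to 185454133) and exon 3 (185447116 to 185449214) lie outside that gene. The start of the part outside Slc30a10 is shown (GRCm38, minus strand, 5′ to 3′), with the last 20 bases of exon 1 in lower case and the 129 bases of exon 2 in capitals.
Gm2061: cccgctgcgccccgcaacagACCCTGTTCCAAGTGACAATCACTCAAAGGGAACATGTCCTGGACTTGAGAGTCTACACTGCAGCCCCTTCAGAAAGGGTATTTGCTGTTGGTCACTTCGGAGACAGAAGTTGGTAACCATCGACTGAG

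Gm2061 stood at 3.47, 4.96 and 5.75 CPM in the control libraries (replicates 1, 2 and 3) and at 27.7, 15.8 and 21.7 CPM in the FR F1 libraries. The lowest FR F1 library was above the highest control library. The mean was 4.73 ± 1.16 CPM in control and 21.8 ± 5.91 CPM in FR F1 (SD, n = 3 each), a log2 fold change of 2.18 ± 0.34 (SE; edgeR adjusted p = 0.0385). Most Gm2061 counts thus came from the FR F1 libraries, through which it could enter the members and pass the filter on low counts. Its place among the tested lincRNAs is not independent of its rise. Slc30a10 stood at 57.7, 79.3 and 62.5 CPM in control and at 255, 196 and 231 CPM in the FR F1 libraries, and rose by a log2 fold change of 1.77 ± 0.17 (SE; edgeR adjusted p = 0.00711). How many Gm2061 counts fell on the shared exon was not tested, since the table gives 1 count per gene. Without control replicate 2 or any one FR replicate the Gm2061 call was lost, as it was with limma-voom and with the replicate number as a block, with adjusted p up to 0.174 over all edgeR, DESeq2 and limma alternatives.

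The 8 lincRNAs next in order of p did not pass the adjusted edgeR test. DESeq2 called 4 of them, with adjusted p of 0.00364 for Gm40264, 0.0116 for Gm26669, 0.018 for Gm26917 and 0.0431 for BC049987, where it called 3.51% of all tested genes. Gm40264 (ENSMUSG00000114430.1, chromosome 5, 9034780 to 9061316) stood at 3.90, 3.61 and 2.30 CPM in control and 17.9, 20.3 and 8.62 CPM in the FR F1 libraries. The groups did not overlap, and its log2 fold change was 2.25 ± 0.43 (SE; edgeR adjusted p = 0.0674). Like Gm2061, Gm40264 had most of its counts in the FR F1 libraries and could enter through them. The nearest coding gene, Crot, whose enzyme moves acyl groups to carnitine in peroxisomes, is 37456 bases away and had 0.52 ± 0.19 (edgeR adjusted p = 0.213).

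BC049987 (ENSMUSG00000110755.1, chromosome 9, 44670453 to 44672238) is transcribed away from Treh, the trehalase gene, 995 bases off. It stood at 25.6, 18.9 and 22.6 CPM in control and 37.4, 40.5 and 42.3 CPM in the FR F1 libraries, with a log2 fold change of 0.84 ± 0.19 (SE; edgeR adjusted p = 0.0960). All FR F1 libraries were above all control libraries, while Treh had -0.22 ± 0.35 (edgeR adjusted p = 0.755).

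Gm44117 (chromosome 6, 90459711 to 90461468) is transcribed away from Klf15, a transcription factor gene of glucose and amino acid metabolism, 1108 bases off. It stood at 20.4, 14.9 and 16.5 CPM in control and 8.23, 3.69 and 7.80 CPM in the FR F1 libraries. Its log2 fold change was -1.39 ± 0.35 (SE; edgeR adjusted p = 0.123) and that of Klf15 was -0.73 ± 0.16 (edgeR adjusted p = 0.0910). The pair had the same sign, and neither passed.

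Gm26669 (chromosome 12, 80108034 to 80113000) shares 1672 of its 1808 exonic bases with Zfp36l1 on the opposite strand, the gene of a protein that promotes decay of AU-rich mRNAs. It stood at 142, 87.9 and 57.1 CPM in control and 234, 233 and 181 CPM in the FR F1 libraries. Its log2 fold change was 1.17 ± 0.30 (SE; edgeR adjusted p = 0.123) beside 0.79 ± 0.15 for Zfp36l1 (edgeR adjusted p = 0.0674). With so much shared, the counts of these genes cannot be told apart.

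Gm16907 (chromosome 13, 63289601 to 63297147) lies within Fancc, a gene of DNA crosslink repair, and shares 90 bases with 2010111I01Rik. It stood at 14.3, 17.1 and 13.4 CPM in control and 6.36, 5.53 and 7.80 CPM in the FR F1 libraries, a log2 fold change of -1.18 ± 0.28 (SE; edgeR adjusted p = 0.107). Fancc had -0.81 ± 0.34 and 2010111I01Rik -0.47 ± 0.14. Gm26518 (chromosome 15, 102455526 to 102483722) shares 129 bases with Pcbp2, the gene of an RNA-binding protein, and had a log2 fold change of -0.63 ± 0.16 (SE; edgeR adjusted p = 0.124) beside 0.06 ± 0.11 for Pcbp2. Control libraries of Gm26518 lay between 59.0 and 66.0 CPM and FR F1 libraries between 35.3 and 43.9 CPM.

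4732465J04Rik (chromosome 10, 95746077 to 95797236) stood at 37.7, 51.8 and 53.3 CPM in control and 67.3, 84.8 and 82.1 CPM in the FR F1 libraries, a log2 fold change of 0.71 ± 0.19 (SE; edgeR adjusted p = 0.133). Its nearest coding gene, the model Gm33543 at 26737 bases, fell, with a log2 fold change of -2.01 ± 0.26 (SE; edgeR adjusted p = 0.0272). These values have opposite signs. Gm26917 is given with the ribosomal locus below.

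**Figure D2:**
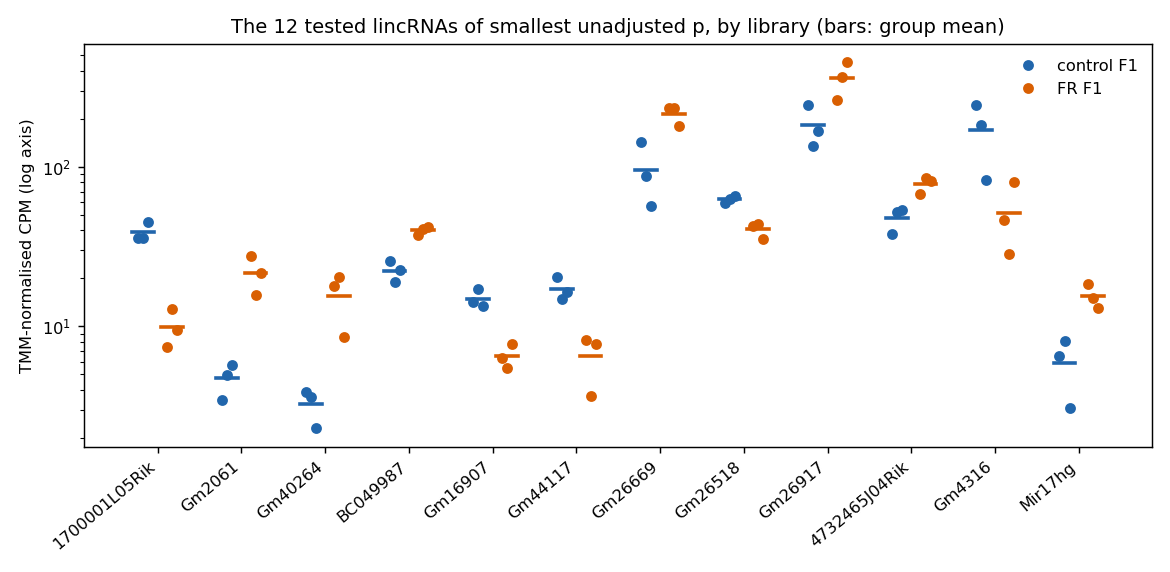
Normalised CPM (log axis) of the 12 tested lincRNAs of smallest unadjusted p in each library, with points for libraries and bars for group means. In each of the 12 the control F1 and FR F1 points do not overlap, which picking them by p in these same libraries favours. Over all tested genes 25.7% do not overlap.

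Among lincRNAs of known nuclear role, Neat1, the scaffold of paraspeckles, and Malat1, a nuclear speckle RNA, were the most counted. Neat1 (chromosome 19, 5824708 to 5845478) stood at 565, 485 and 466 CPM in control and 627, 532 and 608 CPM in the FR F1 libraries, a log2 fold change of 0.22 ± 0.11 (SE; edgeR adjusted p = 0.331). Malat1 (chromosome 19, 5795690 to 5802672) stood at 575, 477 and 336 CPM in control and 615, 625 and 546 CPM in FR F1, a log2 fold change of 0.36 ± 0.18 (SE; edgeR adjusted p = 0.326). The Malat1 value was 0.55 without control replicate 1 and 0.175 without control replicate 3. The groups overlapped in both. Per kilobase of exon Malat1 had 75.7 CPM and Neat1 26.3 CPM.

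A pair of well counted lincRNAs lies at a ribosomal locus on chromosome 17. Gm42418 (39846958 to 39848788) shares 1822 of its 1831 exonic bases with the ribosomal RNA gene CT010467.1 on the opposite strand, and RefSeq lists it as the pseudogene Rn18s-rs5. It stood at 482, 423 and 337 CPM in control and 419, 454 and 518 CPM in the FR F1 libraries, a log2 fold change of 0.16 ± 0.15 (SE; edgeR adjusted p = 0.569), and leaving out control replicate 3, control replicate 1 or FR replicate 3 gave 0.0325, 0.287 and 0.0869. CT010467.1 itself stood at 330, 270 and 245 CPM in control and 285, 339 and 353 CPM in FR F1, with 0.21 ± 0.14 (SE; edgeR adjusted p = 0.455). Gm26917 (39843013 to 39846341), just beside it, stood at 245, 136 and 167 CPM in control and 264, 367 and 452 CPM in FR F1, a log2 fold change of 0.98 ± 0.26 (SE; edgeR adjusted p = 0.128). The groups overlapped in Gm42418 and not in Gm26917. In its highest library Gm42418 was at or over 0.5 counts per base pair of transcript, so its change may be understated.

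Of the other most counted members, Gm31583 (chromosome 16, 24085083 to 24090089) stood at 349, 199 and 133 CPM in control and 401, 462 and 355 CPM in the FR F1 libraries, a log2 fold change of 0.84 ± 0.31 (SE; edgeR adjusted p = 0.218), or 1.29 without control replicate 1. The groups did not overlap. 2900097C17Rik (chromosome 2, 156388065 to 156392979), which RefSeq names Norad, an RNA that binds Pumilio proteins, had a log2 fold change of 0.31 ± 0.15, or 0.196 without control replicate 3. 1700020I14Rik (chromosome 2, 119594297 to 119607502), which RefSeq names Oip5os1 and which is also known as Cyrano, had 0.44 ± 0.25, with 0.176 without control replicate 3 and 0.679 without control replicate 1. Tmem250-ps (chromosome 2, 26136814 to 26140521) had -0.06 ± 0.12 and Gm26809 (chromosome 6, 18844220 to 18847360) 0.05 ± 0.12, and none of these 4 passed the edgeR test.

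Hosts of small nucleolar RNAs, which guide chemical marks on ribosomal RNA, showed no change that passed. Of 21 listed hosts of any gene type 15 were tested, 0 passed the adjusted edgeR test, 2 were higher at an unadjusted p under 0.05, where 9.02% of all tested genes were, and their median log2 fold change was 0.15, beside 0.00 over all tested genes. The members among them were Snhg6 at 0.18 ± 0.26, Snhg12 at 0.02 ± 0.26, Snhg20 at 0.01 ± 0.19 and Epb41l4aos at 0.20 ± 0.55. The sign of the last 3 turned under some alternatives. Of 57 other named long noncoding RNA genes, listed whatever their annotated gene type, 13 were tested and 0 passed the adjusted edgeR test. At an unadjusted edgeR p under 0.05, 1 was higher, where 9.02% of all tested genes were. Their median log2 fold change was 0.23. Pvt1, a neighbour of Myc, had 0.12 ± 0.34, and Lncpint, a p53-induced RNA, had -0.77 ± 0.41, or -0.445 without FR replicate 1. The Snhg6 and Pvt1 values, both within 1 SE of 0, ran from 0.0158 to 0.367 and from 0.00672 to 0.346 over the alternatives.

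The next group is hosts of microRNAs. Of 16 listed hosts 5 were tested, 4 of them were higher at an unadjusted p under 0.05, where 9.02% of all tested genes were, and 0 passed the adjusted edgeR test. The median log2 fold change was 0.89, beside 0.00 over all tested genes. Mir17hg (ENSMUSG00000089726.2, chromosome 14, 115042879 to 115046727) is the member among them, the host of a microRNA cluster known for its part in cell growth. It stood at 6.50, 8.11 and 3.07 CPM in control and 18.3, 15.1 and 13.1 CPM in the FR F1 libraries. FR F1 was above control in every library, with a log2 fold change of 1.41 ± 0.38 (SE; edgeR adjusted p = 0.137). Like Gm2061, Mir17hg had most of its counts in the FR F1 libraries and could enter through them. The mature microRNAs of the cluster, which libraries of polyadenylated RNA do not measure, are shown to make its seed families visible (RefSeq, GRCm38.p6), with the seed, bases 2 to 8, in capitals.
miR-17-5p: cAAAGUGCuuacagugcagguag
miR-20a-5p: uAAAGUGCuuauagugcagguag
miR-18a-5p: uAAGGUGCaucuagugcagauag
miR-19a-3p: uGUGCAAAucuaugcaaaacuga
miR-19b-3p: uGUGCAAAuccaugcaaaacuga
miR-92a-3p: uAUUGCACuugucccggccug
miR-17-5p and miR-20a-5p share a seed, and so do miR-19a-3p and miR-19b-3p. In all, 5 members hold 12 annotated hairpins. 6720427I07Rik, the host of Mirlet7a-1, Mirlet7f-1 and Mirlet7d, had counts of 41, 21 and 1 in control and 63, 66 and 40 in the FR F1 libraries (log2 fold change 1.24, edgeR unadjusted p = 0.138).

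Promoter windows of 300 bases were found for 76 members, taken from RefSeq where its start lay within 1000 bases of the GENCODE start. CACGTG, a palindrome, occurred in 10 of them, or 13.2%, beside 7.15% of all 32851 windows and 5.89% of long noncoding RNA windows. At least 2 copies occurred in 4 members, or 5.26%, beside 0.594% of all windows. Besides 1700001L05Rik these were 4632404H12Rik at a log2 fold change of -0.64, D630024D03Rik at 0.37 and 5930430L01Rik at -0.31. Their edgeR adjusted p-values were 0.17, 0.56 and 0.66. The cut at 2 copies equals the number in the 1700001L05Rik window, which is among the 4 members. That contrast therefore rests on few windows and is not independent of the window shown above. A link of CACGTG with the lincRNA values or with the clock genes below was not tested. On either strand, GGGCGG occurred in 23.7% of member windows, 35.7% of all and 16.3% of long noncoding RNA windows. In the same order, TATAAA occurred in 13.2%, 13.6% and 15.5%, and CCAAT in 39.5%, 37.4% and 36%. AGGTCA occurred in 18.4%, 16.3% and 19.1%, and TTATGTAA in 1.32%, 0.938% and 1.02%. A match describes letters and not a bound site. Of 21 listed clock genes, 3 passed higher and 4 lower (edgeR), where 0.392% and 0.445% of all tested genes did. At an unadjusted edgeR p under 0.05 there were 5 higher and 14 lower, where 9.02% and 8.88% of all tested genes were. Their median log2 fold change was -0.90, and their summed level was 2895 to 3410 CPM in control and 1481 to 2092 CPM in FR F1.

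Neighbouring coding genes were compared for the 155 tested lincRNAs whose nearest protein-coding gene was also tested. The signs were the same in 91 pairs, and Pearson's r across pairs was 0.42 and Spearman's rho 0.41. In the 58 pairs that share exonic bases 43 had the same sign, with r of 0.76, and in the 97 that share none 48 had, with r of 0.31. Without shared bases r was 0.40 in the 50 pairs within 5 kilobases and 0.19 in the 47 farther apart. The pairs come from the same 6 libraries, so these are descriptions across genes. The nearest gene passed the test for 2 members, Gm2061 and 4732465J04Rik, where 0.837% of all tested genes passed.

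**Figure D3:**
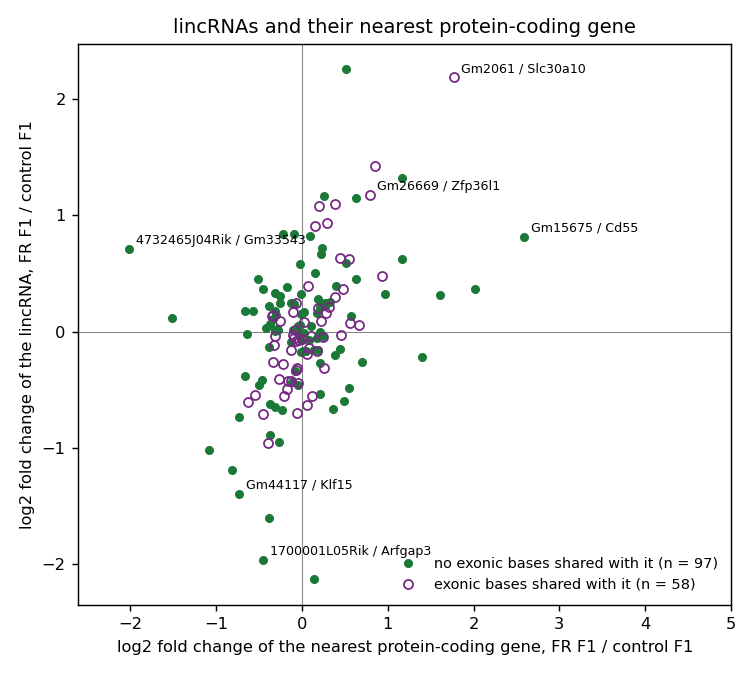
Log2 fold change of each lincRNA against that of its nearest protein-coding gene, with open points for the 58 pairs that share exonic bases and filled points for the 97 that do not. Open points follow the diagonal more closely, with r of 0.76 beside 0.31.

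As a share of all counts, the 200 lincRNAs held 0.839%, 0.796% and 0.742% in the control libraries (replicates 1, 2 and 3) and 0.886%, 0.910% and 0.874% in the FR F1 libraries. All FR F1 libraries were above all control libraries. The means were 0.792% ± 0.0487 and 0.890% ± 0.0184 (SD, n = 3 each; two-sided exact permutation p = 0.1, the smallest that 3 against 3 can give). Without Malat1 and Neat1 the means were 0.697% ± 0.0343 and 0.772% ± 0.0198 (exact permutation p = 0.1). The members were chosen by unscaled counts summed over these same libraries, so both p-values are not independent of that choice. Gm31583, Gm26917, Malat1, Gm26669, Neat1 and Gm42418 had the largest positive differences and together made up 77.7% of the net difference. Negative differences in other members offset part of the positive ones, so this is a share of the net and not of all positive differences. The difference in share was positive in 114 members and negative in 86. Gm4316 (chromosome 8, 123165255 to 123178765), named after its values were seen, went the other way, at 242, 183 and 82.8 CPM in control and 46.4, 28.4 and 80.4 CPM in FR F1 (log2 fold change -1.71 ± 0.46, edgeR adjusted p = 0.134).

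**Figure D4:**
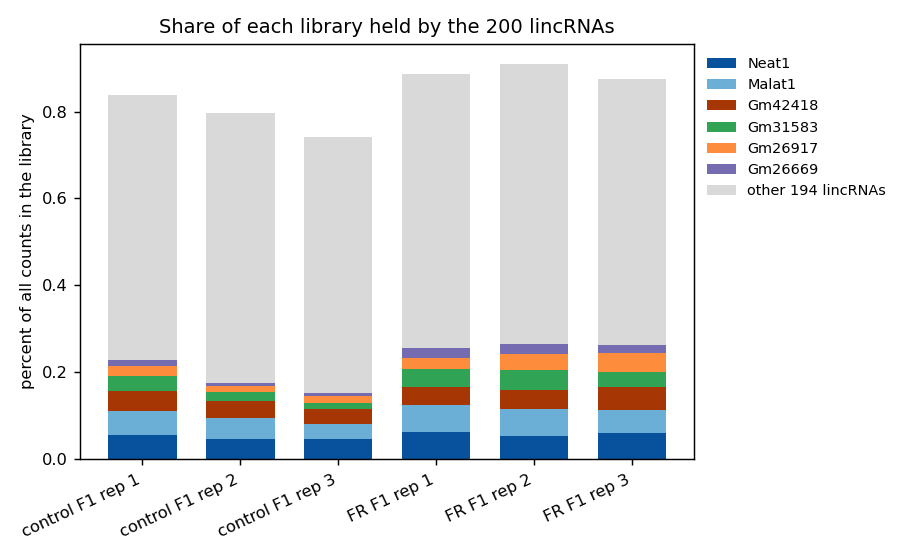
Percent of all counts in each library held by the 200 lincRNAs, stacked as 6 named lincRNAs and the other 194. The totals run from 0.742% to 0.839% in control and from 0.874% to 0.910% in FR F1.

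Some members stood far off in 1 or more libraries, a feature looked for after the values were seen. In 17 of the 198 tested lincRNAs, or 8.59%, the lowest library lay at least 5-fold below the median of the 6, beside 3.88% of all tested genes and 3.21% of protein-coding genes. Control replicate 3 was the lowest library in 9 of them, or 4.55%, beside 2.04% of all tested genes. These shares were not matched for level. Median levels were 18.1 CPM in the lincRNAs, 42.8 CPM in all tested genes and 48.9 CPM in protein-coding genes. The lows named below were 0 to 8 counts, where counting error is large. Gm20752, lowest in FR replicate 2 with 0 counts, was also low in control replicate 3 with 1 count, where its other libraries had 31 to 49. Gm26722 had counts of 81, 53 and 8 in control and 125, 122 and 94 in the FR F1 libraries. Fam120aos had 40, 27 and 8, and 70, 75 and 46. BC002059 had 40, 39 and 3, and 51, 44 and 28. The 2 members that failed the filter were high in a pair of libraries. C730036E19Rik had 160 counts in FR replicate 1 and 52 in control replicate 3, and 2 to 9 in the others. Gm42047 had 131 counts in FR replicate 2 and 36 in control replicate 2, and 0 to 4 in the others.

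**Figure D5:**
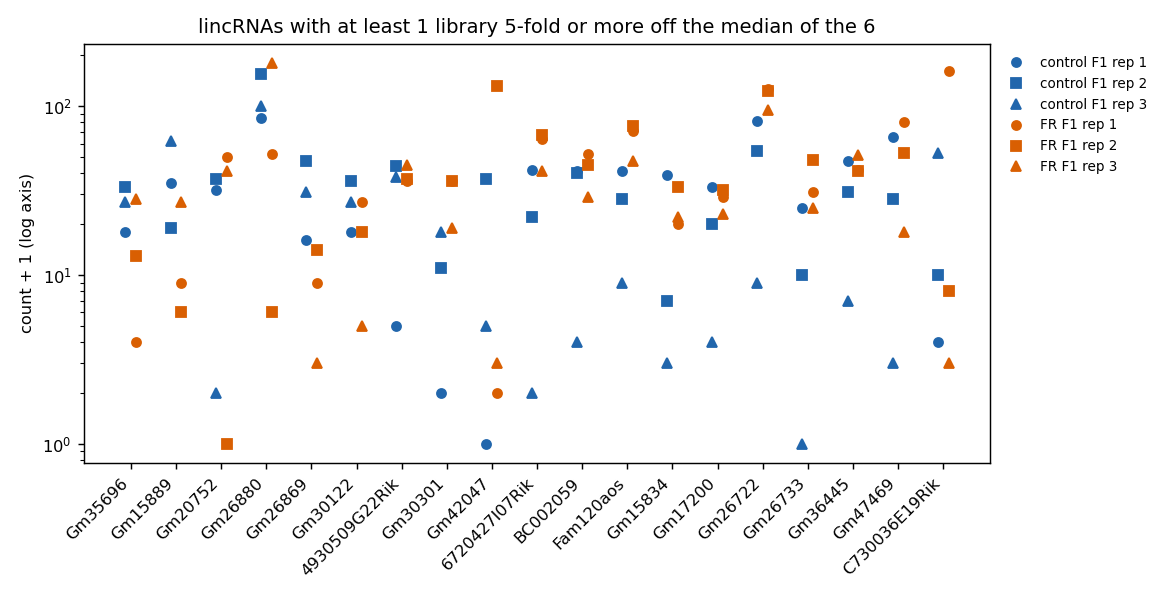
Counts plus 1 (log axis) in each library for lincRNAs with at least 1 library 5-fold or more off the median of the 6, with colours for groups and marker shapes for replicates. Control replicate 3 is the lowest library in 9 of the tested ones, as in Gm26722 with 8 counts.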

How the data were processed

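Liver RNA of 6 libraries was measured, and the authors deposited 1 table of raw counts per gene and library. Build mm10 and the tools DESeq2, HTSeq, STAR and StringTie are named in the submitters' processing notes, without versions or roles. No source used here gives the annotation release, the strand setting or how shared or duplicate reads were handled. Columns were matched to samples by the code in each description, and groups and replicate numbers come from the titles. Genes were matched on Ensembl ID to GENCODE M21.

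The test was run in edgeR 4.0.16 (R 4.3.3) on the deposited counts after filterByExpr (minimum count 10, minimum total 15) with TMM scaling, glmQLFit and glmQLFTest, two-sided, FR F1 against control F1, with Benjamini-Hochberg adjustment over 13022 genes. CPM are TMM-normalised, and SE is the absolute log2 fold change over the square root of F. The common dispersion was 0.05. On simulated data for this comparison with 13022 genes, 29 of 100 genes changed 2-fold and 88 of 100 changed 4-fold were recovered, with 13 calls among unchanged genes. The counts per base pair of transcript rarely passed 0.5, with 318 genes at or over it, so changes of the most abundant genes may be understated.

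The members and gene lists were chosen with earlier results of these data known. Named lincRNAs were those called, the 10 of smallest p, the 10 most counted and those in the 4 lincRNA lists, with neighbours. Alternatives were DESeq2 1.42.0, limma 3.58.1 (voom), other scalings and filters, a threshold of 0.1, a replicate block and each library left out.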

Additional observations from a re-analysis of the deposited data

How the results depend on the processing

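Of 198 tested lincRNAs 2 were called, 1 higher and 1 lower, of 109 genes in all (0.837% of those tested). DESeq2 called 7 (5 higher, 2 lower) of 457 genes (3.51%), and limma-voom 1 (0 higher, 1 lower) of 103 (0.791%). With sample weights limma-voom called 20 of 198 lincRNAs (11 higher, 9 lower), and 1199 genes in all (9.21%). Without a filter edgeR called 25 of 200 lincRNAs (19 higher, 6 lower), and 1251 genes in all (4.04% of 30930 tested). At an adjusted p under 0.1 there were 4 (3 higher, 1 lower) of 322 genes in all (2.47%), and without members sharing exonic bases 1 (0 higher, 1 lower), with a median log2 fold change of 0.153. Leaving out each library gave 0 to 8 called, 0 to 7 higher and 0 to 2 lower, 8 when control replicate 1 was dropped (4.83% of all genes were then called), 3 when control replicate 3 was (1.19%), and 0 when control replicate 2 (0.127%) or FR replicate 1, 2 or 3 was (0.0527%, 0.0825% and 0.336%), where 30, 22, 30 and 41 had an unadjusted p under 0.05. The share of all genes at that unadjusted p was not counted for these fits or for the replicate block. The cause was not tested. With the replicate number as a block 0 were called (0 higher, 0 lower) of 21 genes (0.161%), with 41 at an unadjusted p under 0.05 in edgeR. Correlations of deviations of same-numbered libraries were -0.02, 0.11 and 0.16. Control replicates 2 and 3 correlated best with the FR library of the same number, and control replicate 1 with FR replicate 2 (0.16). These values are low, so the numbers are not taken to pair the libraries. Robust edgeR, 3 scalings, the CPM filter and leaving out genes near the ceiling each called 2, where 0.726% to 0.891% of all tested genes were called. Log2 fold changes that turned sign were within 1 SE of 0. Snhg20 had -0.00257 with limma-voom, -0.000422 without a filter, and -0.102 to 0.125 with 1 library left out (negative, at -0.0111 and -0.102, in the fits lacking control replicate 2 or FR replicate 1). Ino80dos had 0.00796 with sample weights and -0.137 to 0.0481 with 1 library left out (0.0481 and 0.0194 in those lacking control replicate 1 or FR replicate 3). Snhg12 had -0.00763 with sample weights and -0.192 to 0.12 with 1 library left out (-0.101 and -0.192 in those lacking control replicate 3 or FR replicate 1). With 1 library left out Gm26809 reached -0.0414 (control replicate 1), Epb41l4aos ran from -0.194 to 1.13 (-0.194 and -0.038 for control replicates 2 and 3), and Tmem250-ps from -0.1 to 0.00317 (the latter for FR replicate 1). The share difference stayed positive, at 0.0728 to 0.121 percentage points with each library left out.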
